A study of Mus musculus with 4 samples.

Results

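The immediate early genes are the first genes that a cell transcribes after a growth factor, cytokine or stress signal, because their transcription needs no new protein. Fos and Jun proteins pair through leucine zippers to form the transcription factor AP-1, and other products of the same wave, such as the phosphatase Dusp1 and the RNA-binding protein Zfp36, shut the signal and its transcripts down again. In haematopoietic tissue these genes are also known to be induced by the handling of cells, such as warm enzymatic digestion and sorting. The genes described here are 10 members of this class, Fos, Fosb, Jun, Junb, Jund, Egr1, Ier2, Dusp1, Zfp36 and Btg2, chosen by name, and all 10 were among the 12067 genes of the count table.

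The study followed myeloid progenitors that carry a truncating deletion in Bcor, a gene for a corepressor in a Polycomb repressive complex. The 4 libraries were Quant-seq libraries, which read each mRNA near its 3′ end, from mouse KL cells, the Lin−cKIT+Sca-1− bone marrow fraction, sorted for the donor marker CD45.2 from Ptprca recipients 20 weeks after a bone marrow transplant. The 2 BcorΔE9-10 libraries came from donors labelled scl-Cre-ERT + and Bcorfl/y, and the 2 BcorWT libraries from donors labelled Bcorfl/y, so both groups carried the floxed allele and only the first carried Cre. Per the methods, the Cre is driven in haematopoietic stem cells and was induced with tamoxifen, which removes exons 9 and 10 and leaves a truncated protein, so the cells had a mutant or floxed haematopoietic system inside an irradiated host. The sources used here do not say whether the 2 libraries of a genotype came from separate recipients, and p-values then measure only the spread between these libraries.

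Totals ranged from 3825289.5 to 6253100.5 counts, and log2 CPM correlated between libraries with Pearson's r from 0.893, between the 2 BcorWT libraries, to 0.947, over genes that share each library's depth and composition. All 12 KL progenitor markers, among them Kit, Mpo and Elane, were in the table, with summed levels from 8664 to 11430 CPM. Mature neutrophil markers (11 of 11 in the table) summed to 63630 and 155700 CPM in BcorΔE9-10 replicates 1 and 2, and to 94870 and 144400 CPM in BcorWT replicates 1 and 2. Of 9 B cell markers 4 were in the table. Vpreb1, at 21 to 114 counts, was the highest of these in both BcorΔE9-10 libraries. Ebf1 (49 counts) was the highest in BcorWT replicate 1 and Cd79b (36 counts) in BcorWT replicate 2. Of 9 T and NK cell markers 2 were in the table, Klrb1c at 3 to 21 counts and Nkg7 at 437 to 1332 counts (128 to 251 CPM). The B cell markers Cd79a, Ms4a1 and Pax5 and the T cell markers Cd3e, Cd3d and Cd3g were not in the table, which lists genes above a level that is not given. Eosinophil, basophil and mast cell markers summed to 282 and 252 CPM in BcorΔE9-10 and to 593 and 768 CPM in BcorWT. Bcor itself had 104 and 113 counts in BcorΔE9-10 and 58 and 79 counts in BcorWT, and since reads lie at the 3′ end of the transcript they do not check the deletion of internal exons. Gm42418 took 16.3% and 14.3% of the counts in BcorΔE9-10, 27.9% in BcorWT replicate 1 and 1.43% in BcorWT replicate 2 (95% Wilson interval 1.42% to 1.45%). Of the 4 libraries, BcorWT replicate 2 therefore stood apart in this gene, and the main values that rest on it are given below with and without it.

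The members are short genes. Fos, which encodes the founding AP-1 subunit of its family, lies at chr12:85473890-85477273 of GRCm38 on the plus strand, and Fosb, its close relative, at chr7:19302696-19310051 on the minus strand. Jun, Junb and Jund lie at chr4:95049034-95052222 (minus), chr8:84974484-84978718 (minus) and chr8:70698949-70700616 (plus). Ier2 lies at chr8:84661331-84662852, Dusp1 at chr17:26505590-26562128, Zfp36 at chr7:28376784-28380253 and Btg2 at chr1:134075170-134079120, all on the minus strand. Jun, Junb, Jund and Ier2 have a single exon, 4 of 10 members against 2.86% of the 10203 coding genes of the table with a GENCODE M21 annotation. The annotated gene was under 10 kb for 9 of 10 members, against 24.8% of those coding genes, and Dusp1, at 56.5 kb, was the exception.

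Quant-seq reads transcripts near the 3′ end, and AU-rich elements lie in the 3′ UTR, though how near they lie to the counted bases was not examined. Zfp36 protein (tristetraprolin) binds the nonamer TTATTTATT and directs such mRNAs to decay. The nonamer was found in the 3′ UTR of Fos, Dusp1 and Zfp36 itself, 3 of 10 members against 7.95% of 10137 coding genes with a 3′ UTR, and against 6.30% of the 4870 whose UTR was as long as those of the members. The sites are shown on the transcribed strand with the nonamer in capitals, at chr12:85477105-85477130 (plus), chr17:26506160-26506185 (minus) and chr7:28376952-28376977 (minus) of GRCm38. Dusp1 holds 2 such nonamers, and 1 of them is shown.
Fos: ttttcaatTTATTTATTaagatggat
Dusp1: gctggtccTTATTTATTtaacacccc
Zfp36: tgacgactTTATTTATTgtattaaga

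A match is a description of the sequence and not a measured binding site. The shorter pentamer ATTTA was in the 3′ UTR of 9 of 10 members, Ier2 being the exception, against 69.3% of coding genes.

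The promoters of the class are known for binding sites of CREB and ATF factors, which read TGACG or its palindrome TGACGTCA, and for the CArG box of serum response factor. RefSeq windows (GRCm38.p6) of 8 of 10 members were searched over the 250 bases before the start. Egr1 was left out of this search and Ier2 gave no window, so the shares below do not cover them. However, the window of Jund lies apart from its GENCODE start. That of Fosb reaches into the GENCODE gene, and those of Zfp36 and Dusp1 lie wholly inside theirs. TGACG on either strand was in 5 of 8 (Fos, Fosb, Junb, Dusp1 and Btg2), against 17.9% of 32536 windows of that length. TGACGTCA, which holds TGACG on both strands, was in Dusp1 and Btg2, against 1.56% of windows. TATAAA on the transcribed strand was in Fos alone among the 8 (7.55% of windows), TGACATCA on either strand in Jun alone (2.84%), and a CArG box in Zfp36 alone (1.48%). Sites farther upstream than 250 bases were outside the search, so a motif missing here may lie beyond the window. The classical AP-1 site TGANTCA, searched on both strands, was in none of the 8 windows, against 6.73% of all. The windows of Fos, Fosb, Jun and Btg2 are shown because the ratio of Fos to Fosb differed between libraries, Jun was the most abundant member, and Btg2 holds the whole palindrome. They lie at chr12:85473640-85473889 (plus), chr7:19310046-19310295 (minus), chr4:95052223-95052472 (minus) and chr1:134079156-134079405 (minus), with TGACG, TGACGTCA, TGACATCA and TATAAA in capitals.
Fos: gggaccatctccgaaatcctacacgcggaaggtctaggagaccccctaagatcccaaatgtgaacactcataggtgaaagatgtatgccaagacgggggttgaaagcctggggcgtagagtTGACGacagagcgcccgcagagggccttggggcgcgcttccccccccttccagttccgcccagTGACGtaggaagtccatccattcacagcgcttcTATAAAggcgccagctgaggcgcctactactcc
Fosb: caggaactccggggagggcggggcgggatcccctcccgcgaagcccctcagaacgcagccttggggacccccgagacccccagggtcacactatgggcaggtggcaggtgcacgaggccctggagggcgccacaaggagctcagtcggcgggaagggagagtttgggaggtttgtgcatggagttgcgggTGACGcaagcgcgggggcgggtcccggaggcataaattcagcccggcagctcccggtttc
Jun: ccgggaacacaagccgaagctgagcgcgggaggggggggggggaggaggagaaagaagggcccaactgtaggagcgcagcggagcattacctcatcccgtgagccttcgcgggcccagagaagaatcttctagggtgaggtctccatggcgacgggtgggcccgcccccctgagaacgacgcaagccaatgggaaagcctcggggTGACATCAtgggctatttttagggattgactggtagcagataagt
Btg2: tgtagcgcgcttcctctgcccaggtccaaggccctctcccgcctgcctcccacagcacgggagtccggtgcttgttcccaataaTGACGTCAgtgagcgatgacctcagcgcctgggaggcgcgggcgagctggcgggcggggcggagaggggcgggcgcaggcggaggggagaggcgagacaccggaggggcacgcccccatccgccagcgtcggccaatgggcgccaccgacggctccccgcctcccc

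The capitals in the Fos window stand 129, 66 and 33 bases before the start, the last of these being TATAAA. The single TGACG of Fosb stands 60 bases before its start, the TGACATCA of Jun 45 bases and the TGACGTCA of Btg2 166 bases.

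First, the genotypes were compared, to ask whether loss of the intact Bcor protein went with another level of the immediate early genes in KL cells. None of the 10 members passed the test between BcorΔE9-10 and BcorWT (edgeR quasi-likelihood F test, Benjamini-Hochberg adjusted p from 0.945 to 0.999), and none had an unadjusted p under 0.05. No member passed the adjusted test with limma-voom or DESeq2 either, with 0 and 1 at an unadjusted p under 0.05, beside 4.27% and 4.19% of all genes with these tools. With edgeR 0.0166% of all genes passed at an adjusted p of 0.05 (2 of 12067), and 4.42% had an unadjusted p under 0.05 (1.34% higher and 3.07% lower in BcorΔE9-10). By sign alone, 2 members were higher in BcorΔE9-10 and 8 lower, beside 47.7% of all genes higher and 52.3% lower. With limma-voom, with library totals as the only scaling, or with the replicate number as a block, 6 members were higher. In the main edgeR fit the median log2 fold change of the members, -0.03, equalled that of all genes, -0.03. In bulk libraries such as these, fewer cells that express a gene and less RNA per cell cannot be told apart. Levels below are CPM after TMM scaling, in which a transcript counts near its 3′ end whatever its length.

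**Figure D1:**
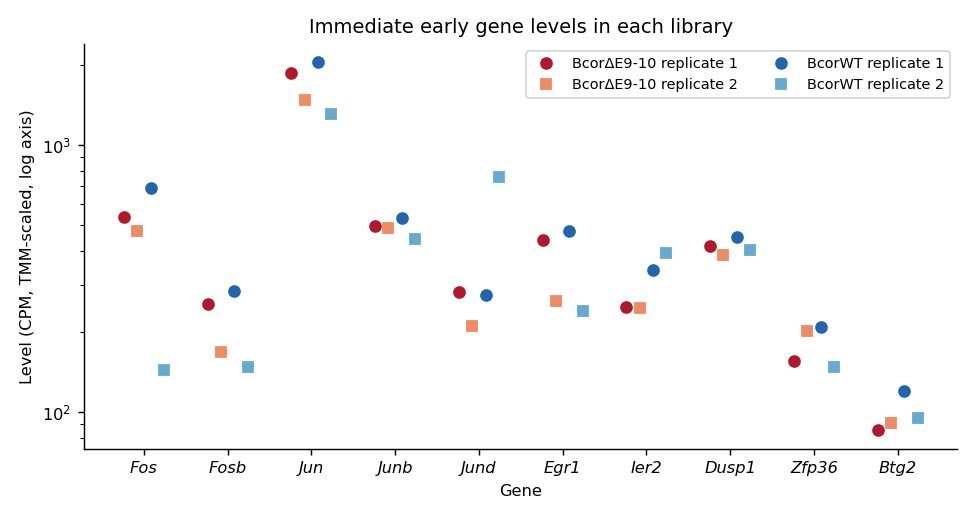
Level of each of the 10 genes (CPM scaled by TMM factors, log axis) in the 4 libraries, 1 point per library and no error bar. BcorWT replicate 2 has the lowest Fos (143 CPM) and the highest Jund (760 CPM), while Junb and Dusp1 lie within a narrow range.

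Of the Fos family, Fos had 2902 and 2910 counts in BcorΔE9-10 replicates 1 and 2, and 2365 and 761 counts in BcorWT replicates 1 and 2. Scaled, these were 536 and 474 CPM in BcorΔE9-10 and 691 and 143 CPM in BcorWT. The BcorWT libraries thus lay on either side of both BcorΔE9-10 libraries, and the means, 505 ± 43.8 CPM and 417 ± 387 CPM (SD, n = 2 each), differed by less than the spread in BcorWT. The log2 fold change of Fos was 0.28 (standard error 0.63, adjusted p = 0.974), and 0.69 with limma-voom, 0.68 with the replicate block and 0.43 with library totals in place of TMM, uncalled in each.

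Fosb, which like Fos needs a Jun partner to bind DNA, had 1373 and 1029 counts in BcorΔE9-10 and 969 and 785 counts in BcorWT. These were 254 and 168 CPM, and 283 and 148 CPM. In each genotype replicate 1 was the higher library, and the groups overlapped, with a log2 fold change of -0.03 (standard error 0.41, adjusted p = 0.995).

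Of the Jun family, whose proteins can pair with each other as well as with Fos proteins, Jun was the most abundant of the 10 genes in every library. It had 10049 and 9054 counts in BcorΔE9-10 and 6988 and 6936 counts in BcorWT, or 1857 and 1476 CPM against 2041 and 1305 CPM. The BcorWT libraries again lay on either side of the others, and the log2 fold change was -0.01 (standard error 0.38). Junb, known as a brake on myeloid progenitor growth, had 2689 and 3002 counts in BcorΔE9-10 and 1829 and 2352 counts in BcorWT. Its 4 levels lay close together, 497 and 489 CPM against 534 and 443 CPM, with a log2 fold change of 0.01 (standard error 0.32).

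Jund, the member of its family that is usually present without a stimulus, had the log2 fold change farthest from 0. It had 1516 and 1289 counts in BcorΔE9-10 and 941 and 4036 counts in BcorWT, or 280 and 210 CPM against 275 and 760 CPM. Only BcorWT replicate 2 was high, and BcorWT replicate 1 lay between the BcorΔE9-10 libraries. The log2 fold change of -1.08 (standard error 0.49) had an edgeR adjusted p of 0.945.

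Egr1, a zinc finger transcription factor that restrains stem cell cycling, had 2391 and 1603 counts in BcorΔE9-10 and 1637 and 1269 counts in BcorWT. These were 442 and 261 CPM, and 478 and 239 CPM, so that replicate 1 was the higher library of each genotype, as for Fosb. The log2 fold change was -0.03 (standard error 0.44). Ier2, a small nuclear protein, had 1337 and 1499 counts in BcorΔE9-10 and 1167 and 2091 counts in BcorWT. Both BcorΔE9-10 levels, 247 and 244 CPM, were below both BcorWT levels, 341 and 394 CPM, and the log2 fold change was -0.58 (standard error 0.31, edgeR adjusted p = 0.945).

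The feedback genes varied less between the libraries than Fos or Jund. Dusp1, which dephosphorylates MAP kinases, had 2265 and 2383 counts in BcorΔE9-10 and 1545 and 2145 counts in BcorWT, or 419 and 389 CPM against 451 and 404 CPM. Its log2 fold change was -0.08 (standard error 0.32), with overlapping groups. Zfp36 had 842 and 1228 counts in BcorΔE9-10 and 715 and 785 counts in BcorWT. Its levels of 156 and 200 CPM lay within the BcorWT levels of 209 and 148 CPM, and its log2 fold change was within 0.01 of 0 (standard error 0.34). Btg2, an antiproliferative adaptor of the deadenylase complex, was the least abundant member, with 461 and 556 counts in BcorΔE9-10 and 410 and 503 counts in BcorWT. Its BcorΔE9-10 levels, 85.2 and 90.6 CPM, were below the BcorWT levels, 120 and 94.7 CPM, with a log2 fold change of -0.29 (standard error 0.31, adjusted p = 0.950). Ier2 and Btg2 were thus the 2 members whose genotypes did not overlap, both lower in BcorΔE9-10, while 17.1% of all genes were lower and 16.8% higher without overlap.

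Since BcorWT replicate 2 set the extremes of Fos and Jund, the fit was repeated without each BcorWT library. Without BcorWT replicate 1, which leaves a single BcorWT library whose spread is assumed to be that of the BcorΔE9-10 pair, Fos was higher in BcorΔE9-10 (log2 fold change 1.81, edgeR adjusted p = 0.0213) and Jund lower (-1.64, adjusted p = 0.0259), while 4.94% of all genes passed. Without BcorWT replicate 2, the same fit gave -0.45 for Fos and -0.17 for Jund with neither called, no member was higher in BcorΔE9-10, the median was -0.36, and 0.249% of all genes passed. The sign for Fos therefore turned with the BcorWT library that was kept. The log2 fold change of Jund was -1.64 with BcorWT replicate 2 kept and only -0.17 with BcorWT replicate 1 kept. Ier2 stayed between -0.68 and -0.47 and Btg2 between -0.45 and -0.11 whichever of the 4 libraries was left out, and neither was called. Leaving out BcorΔE9-10 replicate 1 or 2 called no member, beside 0.0497% and 0.282% of all genes.

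**Figure D2:**
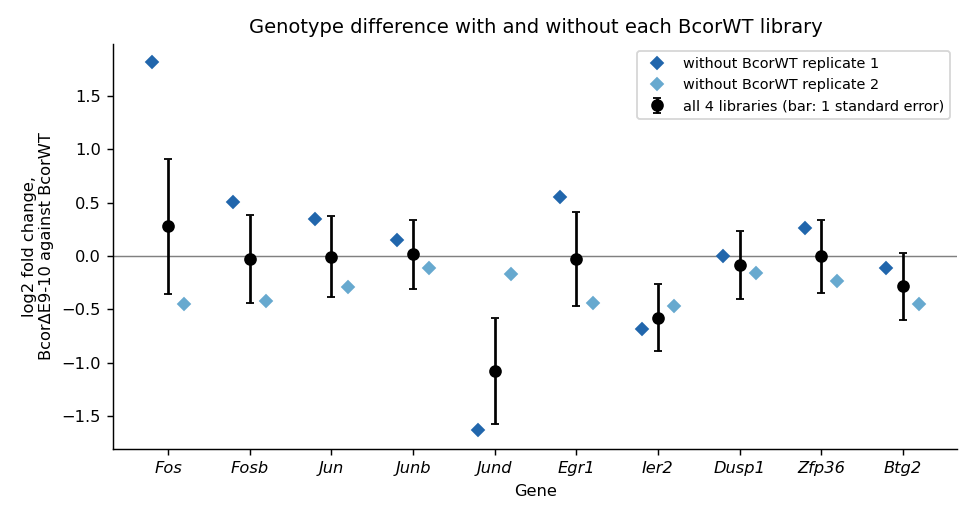
log2 fold change of BcorΔE9-10 against BcorWT for each gene, with all 4 libraries (black, bars of 1 standard error) and with either BcorWT library left out (diamonds, no error bar). The 2 diamonds of Fos lie at 1.81 and -0.45 and those of Jund at -1.64 and -0.17, while those of Dusp1 and Ier2 lie close to the value from all libraries.

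Next, the libraries of each genotype were compared with each other, with 95% intervals for counting error only. BcorWT replicate 2 had 4.82-fold less Fos than BcorWT replicate 1 (log2 difference -2.27, interval -2.39 to -2.15) and 2.76-fold more Jund (1.47, interval 1.36 to 1.57). Egr1 and Fosb were lower by log2 differences of -1.0 and -0.94, Jun by -0.64, Zfp36 by -0.50 and Btg2 by -0.34. Junb (-0.27), Dusp1 (-0.16) and Ier2 (0.21) differed least. By this measure 2 members were over 2-fold lower (13.5% of all genes) and 1 over 2-fold higher (10.8%). Of the 2 lower ones, Egr1 lay at the cut (log2 difference -1.001, interval -1.11 to -0.89). In all, 8 of 10 members were lower beside 51.8% of all genes, and the members' median was -0.42 against -0.04 for all genes. With library totals in place of TMM that median was -0.17, and the one between the BcorΔE9-10 libraries -0.27, so that the order of the 2 genotypes turned with the scaling.

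Between the BcorΔE9-10 libraries no member differed by over 2-fold, where 5.58% of all genes were over 2-fold higher in replicate 2 and 3.34% lower. Egr1 (-0.76), Fosb (-0.60) and Jund (-0.42) had the lowest log2 differences of replicate 2 against replicate 1, and Zfp36 (0.36) the highest. Fos differed by -0.18 (interval -0.25 to -0.10), so the wide range of Fos was between the BcorWT libraries. Of the members 8 of 10 were lower in replicate 2, beside 50.1% of all genes, with a median of -0.14 against -0.00 for all genes.

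Within a family, the counts of its members can be set against each other inside 1 library, which no scaling between libraries alters. Jund made up 10.6% and 9.66% of the Jun family counts in BcorΔE9-10, 9.64% in BcorWT replicate 1 and 30.3% in BcorWT replicate 2 (Wilson interval 29.5% to 31.1%). Jun made up 70.5% and 67.9% in BcorΔE9-10, and 71.6% and 52.1% in BcorWT replicates 1 and 2. Junb kept to a range of 17.7% to 22.5%. The family counts were therefore made up alike in 3 libraries and held more Jund in the last. A share is free of scaling but not of differences between libraries that follow base composition, which are described below. Their part in the shares of either family was not tested.

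Fos made up 64.7% and 68.2% of the Fos family counts in BcorΔE9-10, 68.0% in BcorWT replicate 1 and 41.0% in BcorWT replicate 2 (interval 38.8% to 43.3%). In that last library Fosb, at 42.3%, took a like share, with 0.969 Fos counts per Fosb count against 2.11 to 2.83 in the other libraries. Fosl2, another AP-1 subunit, took 14.5% there and 3.88% to 6.96% elsewhere. Fosl1 was rare in every library, from 0.201% to 2.16%.

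**Figure D3:**
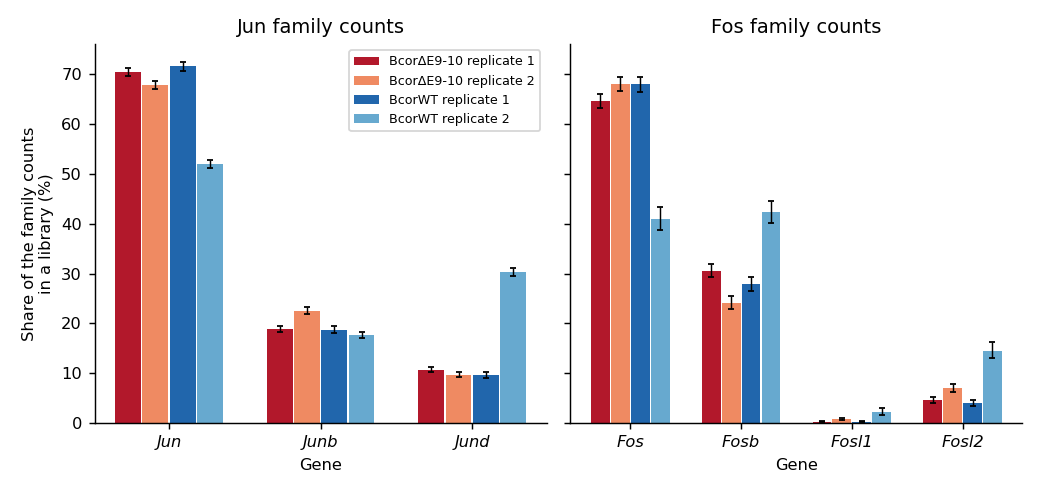
Share of the counts of the Jun family (Jun, Junb, Jund) and of the Fos family (Fos, Fosb, Fosl1, Fosl2) that each gene took in each library, in percent, with 95% Wilson intervals for counting error. BcorWT replicate 2 differs from the other 3 libraries, with 30.3% Jund and 41.0% Fos.

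Fosb and Egr1 had the most alike profiles of any 2 members, a Euclidean distance of 0.123 between their centred log2 CPM over the 4 libraries. Egr1 was the nearest of 2998 genes with at least 50 CPM to Fosb, a pair singled out after its values were seen. There were 1.74 and 1.56 Egr1 counts per Fosb count in BcorΔE9-10, and 1.69 and 1.62 in BcorWT. Fos and Jund were the pair farthest apart, at 3.09. The 5 genes nearest to Fos by the same measure were Rn7s1 (0.232), Rps27a-ps2 (0.245), Gm8430 (0.323), Gm13340 (0.337) and Eif4g1 (0.461). Each of these, like Fos, was lowest in BcorWT replicate 2, for example Rn7s1 with 1557 and 1284 counts in BcorΔE9-10 and 1255 and 362 counts in BcorWT. No other member was among them.

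The members also differ in the base composition that Quant-seq reads. The last 500 bases of the transcript held 32.6% GC in Fos, the lowest of the 10, and 56.2% in Jund, the highest, with a median of 44% over coding genes. Across 11919 genes the log2 difference between the BcorWT libraries had a Spearman correlation with this GC content of 0.417, a description over genes that share the same 2 libraries. By decile of GC content the median difference went from -0.58 in the lowest (up to 34%) to 0.58 in the highest (above 55%). Between the BcorΔE9-10 libraries the correlation was -0.145, and the deciles went from 0.13 to -0.08. The genotype log2 fold change had a correlation of -0.402, with decile medians from 0.28 to -0.44.

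Relative to genes of the same GC content, the BcorWT difference of Fos was -1.76 and that of Jund 0.94, both nearer to 0 than before. Those of Egr1 and Jun, at -0.62 and -0.54, were also nearer to 0. Those of Fosb and Junb, at -0.98 and -0.85, were farther from 0, while that of Dusp1 changed sign to 0.22 and that of Ier2 to -0.32. The members' median was -0.43, against -0.42 before, beside -0.01 for all genes. On this scale no member was over 2-fold higher (8.36% of all genes) and Fos alone was over 2-fold lower (11.6%). With GC content as an offset in the fit, which was added after the data were examined, Jund had a genotype log2 fold change of -0.64 and Ier2 of -0.25, in place of -1.08 and -0.58. Others moved away from 0, Dusp1 from -0.08 to -0.27, Btg2 from -0.29 to -0.38, Egr1 from -0.03 to -0.16 and Junb from 0.01 to 0.24, and the members' median became -0.14 beside -0.02 for all genes. No member was called with the offset (edgeR adjusted p from 0.997 to 0.999) or had an unadjusted p under 0.05, beside 0.0166% and 4.22% of all genes.

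**Figure D4:**
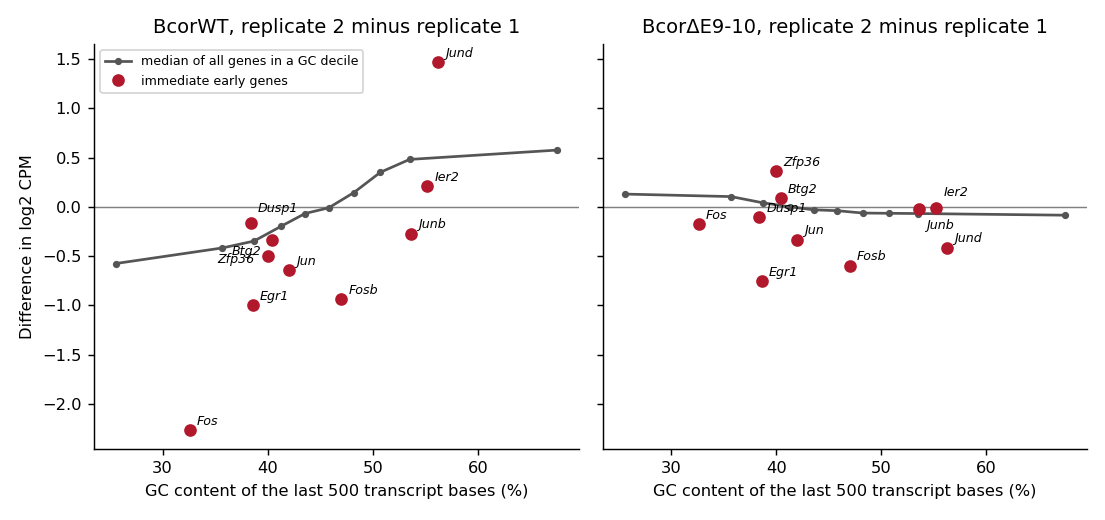
Difference in log2 CPM between the libraries of a genotype (replicate 2 minus replicate 1) against the GC content of the last 500 bases of the transcript, for the 10 genes (red points) and as the median of all genes in each GC decile (grey line, drawn at the decile's middle). In BcorWT the line goes from -0.58 to 0.58, with Fos and Jund beyond it on either side, and in BcorΔE9-10 it is nearly flat.

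The other genes of the pathway were read from lists for comparison. Of 15 other AP-1 bZIP genes, 11 were in the table and none passed at an adjusted or unadjusted p of 0.05 (5 higher, 6 lower). The most abundant were Mafg, Jdp2, a repressor of AP-1, and Fosl2, with log2 fold changes of -0.23, -0.47 and -0.07. These were 0.03, -0.20 and 0.13 without BcorWT replicate 2. Whichever library was left out, Mafg stayed between -0.48 and 0.03, Jdp2 between -0.70 and -0.20 and Fosl2 between -0.25 and 0.13. Of 46 other immediate early genes, 38 were in the table and none passed the adjusted test, while 3 had an unadjusted p under 0.05, beside 4.42% of all genes. Of these, Nfkbiz (log2 fold change 0.95), of the NF-kB inhibitor family, and Id2 (0.84), an inhibitor of helix-loop-helix factors, had a higher level in BcorΔE9-10. The small GTPase Rhob (-1.20) had a lower one. With the GC offset the values were 0.63 for Nfkbiz, 0.47 for Id2 and -1.54 for Rhob, and Id2 no longer had an unadjusted p under 0.05. Rhob had 759 and 986 counts in BcorΔE9-10 and 839 and 2383 counts in BcorWT, and so was high mainly in BcorWT replicate 2, without which its log2 fold change was -0.70. The 3 most abundant genes of the list, Klf6 (0.11), Nfkbia (0.16) and Trib1 (0.61), had log2 fold changes that were not called. These were -0.29, 0.19 and 0.89 without BcorWT replicate 2, and 0.65, 0.12 and 0.38 without BcorWT replicate 1. Without BcorWT replicate 1, edgeR called 3 of the 38 (4.94% of all genes), Dusp5 (1.45), Zfp36l1 (2.27) and Rhob (-1.58), and with any other library left out it called none. Egr2, Egr3 and Arc were among the 8 not in the table.

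All 20 kinases and serum response factors listed as acting upstream of the class were in the table, 9 were higher and 11 lower, and none passed, with 1 at an unadjusted p under 0.05, a share near the 4.42% of all genes. This was Elk1, an ETS partner of serum response factor at the Fos promoter, with 33 and 39 counts in BcorΔE9-10 and 40 and 177 counts in BcorWT (log2 fold change -1.86, edgeR adjusted p = 0.945). Srf itself had a log2 fold change of -0.20, Mapk3 (ERK1) of -0.17 and Rps6ka1 of -0.90. Without BcorWT replicate 2, the log2 fold change was -0.90 for Elk1, 0.18 for Srf, -0.05 for Mapk3 and within 0.01 of 0 for Rps6ka1. Whichever library was left out, Srf stayed between -0.50 and 0.18 and Mapk3 between -0.32 and -0.04. Between the BcorWT libraries, 6 of the 20 were over 2-fold higher in replicate 2 and none over 2-fold lower, beside 10.8% and 13.5% of all genes. Without BcorWT replicate 1, edgeR called Elk1 (-2.42), Mkl1 (-1.40) and Rps6ka1 (-1.45), where 4.94% of all genes were called, and with any other library left out it called none of the 20.

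Heat shock genes, which another stress response induces, were mostly lower in BcorΔE9-10, and whether they differed from the members was not tested. Of 12 genes measured, 11 were lower in BcorΔE9-10, with a median log2 fold change of -0.77 beside -0.03 for all genes, 8 did not overlap between genotypes (17.1% of all genes in this direction), and 5 had an unadjusted p under 0.05 (3.07% of all genes in this direction). None passed at an adjusted p of 0.05 with edgeR. Hspa1a, an inducible HSP70 chaperone, had 938 and 1025 counts in BcorΔE9-10 and 2272 and 3367 counts in BcorWT. Its log2 fold change was -1.93 (standard error 0.32, edgeR adjusted p = 0.419), and that of its near-identical neighbour Hspa1b, between which reads may be split uncertainly, was -1.61. DESeq2 called these 2 genes (adjusted p = 5.1e-05 and 0.0373), where it called 0.356% of all genes, and edgeR called both of them without BcorWT replicate 1 (4.94% of all genes) and without BcorWT replicate 2 (0.249%), and neither without BcorΔE9-10 replicate 1 or 2. Hspb1, Dnajb1 and Hspe1 had log2 fold changes of -1.93, -0.86 and -0.80, and that of Dnajb1 was -0.56 without BcorWT replicate 2. Of the 3 most abundant genes, Hsp90ab1 was at -0.71, Hspa8 at -0.34 and Hsp90aa1, the 1 heat shock gene above 0, at 0.09. Without BcorWT replicate 2 these were -0.70, -0.16 and -0.27, and Hsp90aa1 was also below 0, at -0.03, without BcorΔE9-10 replicate 1. Eosinophil, basophil and mast cell markers were lower by sign for 10 of 10, with 9 of them without overlap (17.1% of all genes in this direction) and none past the adjusted test. Late erythroid markers went the other way, with the 4 globin genes in the table higher without overlap (16.8% of all genes, median log2 fold change 1.10, none past the adjusted test, summed level 73.0 and 69.8 CPM in BcorΔE9-10 and 19.3 and 45.9 CPM in BcorWT). The part of these cell type markers in the differences above was not tested.

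**Figure D5:**
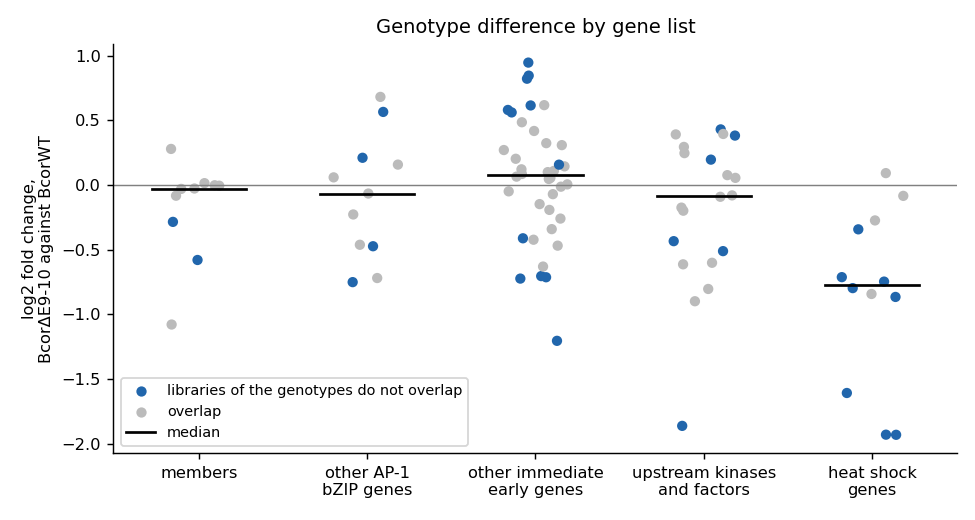
log2 fold change of BcorΔE9-10 against BcorWT for each gene of 5 lists, 1 point per gene, with the list's median as a black line. Blue points are genes whose 2 BcorΔE9-10 libraries both lie above or both below the 2 BcorWT libraries. The medians lie near 0 for the first 4 lists and at -0.77 for the heat shock genes.

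Genes that lie against the members could share reads where counting does not use strand, which is not stated here. The antisense genes Junos (22 to 33 counts) and Gm11175 (8 to 15 counts) overlap Jun and Jund, and Prdx2 (195 to 444 counts) and Ergic1 (89 to 200 counts) lie on the opposite strand of Junb and Dusp1. No stretch of at least 60 bases with 90% identity to another gene was found in the last 500 bases of any member.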

How the data were processed

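Gene counts were measured in 4 Quant-seq libraries of KL cells, 2 BcorΔE9-10 and 2 BcorWT, grouped by the labels. The authors removed reads of low quality, trimmed 5′ and poly-A ends with cutadapt (1.7 per the submitters' processing notes, another version in the methods), aligned reads to mm10 using HISAT2 and summarised them per gene using subread. The authors deposited raw counts, not normalized. In 2 libraries the deposited values of 1 gene were not whole, and these columns, treated like expected counts, were rounded. No molecular identifiers are stated, so intervals cover counting error only. Totals ranged from 3825289.5 to 6253100.5, and 3 counts, the floor of detection, were 0.489 to 0.876 CPM.

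The members and lists were chosen with earlier results of these data known. The genotypes were compared with edgeR 4.0.16 in R 4.3.3 (filterByExpr, which removed 0 genes, TMM scaling, quasi-likelihood F test, prior count 0.125), with Benjamini-Hochberg adjustment over 12067 genes. The study used limma. limma 3.58.1 (voom) and DESeq2 1.42.0 were alternatives, with other scalings, filters and prior counts, Gm42418 left out, each library left out in turn, the replicate number as a block and, added after the data were examined, a GC offset over 20 bins. Differences between 2 libraries used log2 CPM with a prior count of 2. Named genes were the 10 members and, from each pathway list, all genes with an unadjusted p under 0.05, the 3 of the highest mean level, and the 5 genes nearest to Fos. Dusp5, Zfp36l1 and Mkl1 were named after their values were seen. Positions and 3′ UTRs came from GENCODE M21 (GRCm38), promoters from RefSeq (GRCm38.p6), and similar sequences from blastn 2.17.0. The fit was tested on simulated data.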

Additional observations from a re-analysis of the deposited data

How the results depend on the processing

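Hspa1a (-1.93, standard error 0.32) was not called by edgeR with all libraries but was by DESeq2, and no batch or date was labelled. Jund, Ier2, Dusp1 and Btg2 were lower in BcorΔE9-10 under all 14 alternatives. These alternatives refit the same libraries and are not independent of each other. Dusp1 came as near to 0 as -0.0045, Jund as near as -0.17, and the libraries of the genotypes overlapped for both.

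The number of genes past an adjusted p of 0.05, 2 with all libraries, was 5 with at least 10 counts in every library, 4 with limma-voom and 43 with DESeq2, which called 2 heat shock genes. With 1 library left out it ranged from 6 to 596. Over the same leave-outs, 0 to 2 members were called, 0 to 6 were higher in BcorΔE9-10, and their median log2 fold change ranged from -0.36 to 0.21. In those fits 0 to 3 other immediate early genes, 0 to 3 upstream genes and 0 to 2 heat shock genes were called. The cause was not tested.

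Members near 0 changed sign with the setting. With library totals in place of TMM, 6 members were higher, and Fos was at 0.43, Fosb at 0.087, Jun at 0.095, Egr1 at 0.096 and Zfp36 at 0.077. The median difference was then -0.17 between the BcorWT libraries and -0.27 between the BcorΔE9-10 libraries. With limma-voom 6 were higher, with Fos at 0.69, Fosb at 0.017, Jun at 0.018, Egr1 at 0.0096 and Zfp36 at 0.0098, and with GC offsets Fosb was at 0.0040. With 1 library left out, Fos ranged from -0.45 to 1.81, Fosb from -0.43 to 0.51, Jun from -0.29 to 0.35, Junb from -0.12 to 0.15, Egr1 from -0.46 to 0.55 and Zfp36 from -0.23 to 0.26.

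Same-numbered libraries did not deviate together (correlation -0.0945) and share only a number. With the replicate block 14 genes were called and no member, 6 members were higher, and Fos was at 0.68, Fosb at 0.013, Jun at 0.021, Egr1 at 0.0081 and Zfp36 at 0.0076.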
